A study of Mus musculus with 11 samples.

Results

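The 9 genes described here are 5 signal transducers and activators of transcription (Stat3, Stat4, Stat5a, Stat5b and Stat6) and 4 feedback inhibitors of the SOCS family (Socs1, Socs2, Socs3 and Cish), measured in keratinocytes (KCs) and dendritic epidermal T cells (DETCs) of mouse epidermis with or without Langerhans cells (LCs). They were chosen by name, as a family, and with it already known that Stat3 was higher without LCs in both populations, so the comparison of genotypes is given for them as a description with no test. All 9 were found among the 52550 genes of the expression table, and all 9 were among the 14419 genes tested, which had a CPM above 1 (read counts scaled to a common library size) in at least 2 libraries. Stat4 passed that filter through its DETC libraries.

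The study asked how KCs and DETCs differ when they develop in an epidermis that lacks LCs. The LC-/- animals were female huLangerin-DTA mice, labelled DTA, in which the human langerin promoter drives diphtheria toxin subunit A, so that LCs are absent from birth, and the wild-type (WT) animals were female littermates. The animals were 8 weeks of age. KCs were sorted from flank skin as live single cells negative for MHC-II, CD45, langerin and c-kit, and DETCs as CD45-positive cells negative for the other 3 markers. The loss of LCs was lifelong in this model, so early and late consequences of it cannot be told apart. There were 3 WT and 3 LC-/- KC libraries and 3 WT and 2 LC-/- DETC libraries, each holding between 13491075 and 19750440 reads on genes. In sorted bulk samples, fewer cells of a type and less RNA per cell cannot be told apart.

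Cytokine receptors that bind Janus kinases use STAT proteins to carry their signal: the kinase phosphorylates the STAT, which forms dimers, enters the nucleus and binds DNA. SOCS proteins and CISH are made in response to STAT activity and shut the receptor, the kinase or both down, which closes a feedback loop. In skin, STAT3 is known for its part in keratinocyte migration and wound repair, STAT5 in the survival of T cells that depend on interleukin-2, interleukin-7 and interleukin-15, STAT4 in the response of lymphocytes to interleukin-12, and STAT6 in the response to interleukin-4 and interleukin-13.

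STAT dimers are known to bind a palindromic DNA element, so the start regions of the 9 genes were searched for TTCNNNGAA, in which N is any base. This element is its own reverse complement, and one search therefore covers both strands. The RefSeq promoter table, build GRCm38.p6, gave 11 windows of 300 bases, from 250 bases before a gene's start to 50 after it, for 8 of the 9 genes (Stat3, Stat4, Stat5a, Stat5b, Stat6, Socs1, Socs3 and Cish). The element was found in the windows of 2 of them, Socs3 and Cish. It was found in any window of 9.55% of all genes there, and in 8.3% of all 32851 windows. Cish, the inhibitor known as a direct STAT5 target, held 2 matches, which 0.457% of all windows reached. The stretches are shown because they carry the only matches among the windows of these genes. They run 5′ to 3′ on the gene's own strand, from 250 bases before the start to 20 after it, with the element in capitals.
Socs3, chr11:117969347-117969616, minus strand: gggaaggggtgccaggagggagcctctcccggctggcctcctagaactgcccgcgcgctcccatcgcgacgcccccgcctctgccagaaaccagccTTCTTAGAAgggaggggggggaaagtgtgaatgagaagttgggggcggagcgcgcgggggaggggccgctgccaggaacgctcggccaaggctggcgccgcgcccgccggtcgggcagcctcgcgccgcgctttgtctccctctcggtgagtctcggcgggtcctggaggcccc
Cish, chr9:107296409-107296678, plus strand: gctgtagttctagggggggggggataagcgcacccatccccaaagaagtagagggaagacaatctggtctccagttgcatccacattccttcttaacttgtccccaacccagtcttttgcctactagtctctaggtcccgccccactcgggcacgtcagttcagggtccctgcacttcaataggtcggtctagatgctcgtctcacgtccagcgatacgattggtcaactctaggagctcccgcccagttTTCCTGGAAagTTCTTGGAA
The Socs3 match TTCTTAGAA lay from 154 to 146 bases before the start. The Cish matches TTCCTGGAA and TTCTTGGAA lay at bases 1 to 9 and 12 to 20 after the start. The start meant here is that of the RefSeq promoter table. For Socs3 and Cish it lies inside the gene span given below, which is from GENCODE mouse release 21, and so do the matches. A match of letters is no measurement of binding, and the lack of one says nothing about sequence outside the window.

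Stat3 (ENSMUSG00000004040.16, chr11:100885098-100939540, minus strand) encodes the STAT used by receptors of the interleukin-6 and interleukin-10 families. Its normalized read counts, which the authors had scaled for sequencing depth, were 9027, 8759 and 9173 in the 3 WT KC libraries and 11278, 11901 and 12176 in the 3 LC-/- KC libraries. In DETCs they were 6076, 6418 and 7120 in the WT libraries and 11524 and 10439 in the LC-/- libraries. Each LC-/- library lay above each WT library of the same population, and the lowest LC-/- value in DETCs exceeded the highest WT value by more than the whole range of the WT libraries. The mean was 1.31-fold higher without LCs in KCs (log2 change 0.39, SE 0.05) and 1.68-fold higher in DETCs (log2 change 0.75, SE 0.10). All log2 changes are on the scale of log2 of the normalized count plus 1 and come from limma fits over all tested genes. These 2 changes belong to the pattern by which the family was chosen.

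**Figure D1:**
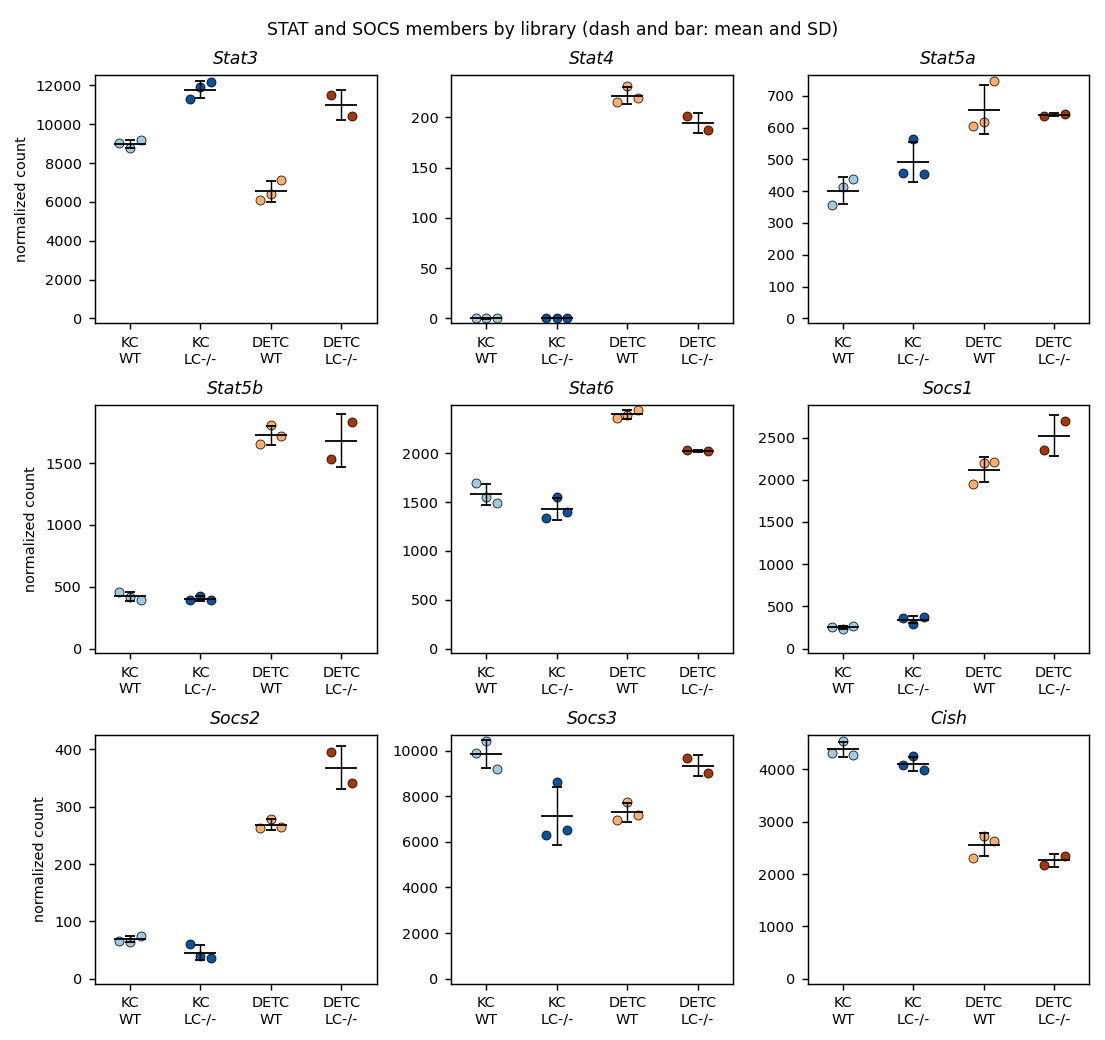
Normalized read count (vertical axis, from 0) of each of the 9 genes in every library, with a dash and bar for the group mean and SD (n = 3, 3, 3 and 2 for KC WT, KC LC-/-, DETC WT and DETC LC-/-). Stat3 lies higher in LC-/- than in WT libraries of both populations, Socs2 and Socs3 lie lower in LC-/- KCs and higher in LC-/- DETCs, and Stat4 is at or near 0 in all 6 KC libraries.

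The plot of the 9 genes by library shows how the other family members sat beside Stat3. No call between genotypes is given for the 9 genes, because they were chosen knowing this contrast. In KCs, 3 genes were higher in every LC-/- library than in every WT library (Stat3, Stat5a and Socs1), 3 were lower (Socs2, Socs3 and Cish) and 3 overlapped. Over all tested genes, 31.5% were separated in this way in KCs, 16.6% as higher and 14.9% as lower. In DETCs, 4 genes were higher without overlap (Stat3, Socs1, Socs2 and Socs3), 2 were lower (Stat4 and Stat6) and 3 overlapped, where 37.9% of all tested genes were separated, 21.3% as higher and 16.5% as lower. The median log2 change of the 9 genes was -0.09 in KCs, where that of all tested genes was -0.01, and -0.03 in DETCs, where it was 0.02. Quantile normalization over the 11 libraries, which forces 1 distribution on all of them, kept the sign of each separated change but gave smaller ones for Stat3, with log2 changes of 0.16 in KCs and 0.50 in DETCs, and for Socs1 and Socs3 in DETCs, with 0.10 each. It gave larger ones for Socs3 and Cish in KCs, with -0.72 and -0.24, and for Stat6 in DETCs, with -0.38.

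Stat5a (ENSMUSG00000004043.14, chr11:100859351-100885169, plus strand) and Stat5b (ENSMUSG00000020919.11, chr11:100780731-100850724, minus strand) encode 2 closely related STATs that act below the interleukin-2, growth hormone and prolactin receptors. Stat5a was at 355, 413 and 438 in WT KCs and at 458, 563 and 454 in LC-/- KCs, so the groups did not overlap, with a log2 change of 0.29 (SE 0.12). Without LC-/- replicate 2, the highest library, the change was 0.19 (SE 0.10), and the other 2 LC-/- libraries lay close above the highest WT value. In DETCs, Stat5a was at 605, 618 and 747 in WT and at 637 and 643 in LC-/- libraries, which overlapped. Stat5b was at 457, 416 and 392 in WT KCs and at 391, 427 and 391 in LC-/- KCs, with overlapping groups and a log2 change of -0.06 (SE 0.07). In DETCs it was at 1651, 1806 and 1719 in WT and at 1532 and 1834 in LC-/- libraries, and the 2 LC-/- libraries enclosed the WT values. Of the 75-base stretches in Stat5a transcripts, 9.27% also occur in Stat5b, so a small part of the reads of each gene could be shared. The gene models of Stat3 and Stat5a overlap by 72 bases on opposite strands, and the strand setting of the authors' counting was not given in the sources used here.

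Stat6 (ENSMUSG00000002147.18, chr10:127642986-127660957, plus strand), the STAT of the interleukin-4 receptor, was at 1696, 1556 and 1488 in WT KCs and at 1333, 1553 and 1401 in LC-/- KCs. These groups overlapped in 1 library of each. In DETCs, Stat6 was at 2358, 2394 and 2441 in WT and at 2031 and 2019 in LC-/- libraries, so both LC-/- libraries lay below the WT range (log2 change -0.24, SE 0.08). Stat4 (ENSMUSG00000062939.11, chr1:51987148-52107189, plus strand), the STAT of the interleukin-12 receptor, had 1 read in the 3 WT KC libraries together and none in the 3 LC-/- KC libraries. In DETCs, Stat4 was at 215, 231 and 219 in WT and at 201 and 187 in LC-/- libraries. The LC-/- values lay just below the WT values, with a log2 change of -0.19 (SE 0.13).

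Socs3 (ENSMUSG00000053113.3, chr11:117966079-117970047, minus strand) encodes the inhibitor that binds gp130-type receptors and limits STAT3 signalling. It was at 9871, 10435 and 9202 in WT KCs and at 6296, 8614 and 6522 in LC-/- KCs, so all LC-/- libraries were lower, with a fold of 0.72 (log2 change -0.47, SE 0.14). LC-/- replicate 2 lay closest to the WT libraries. In DETCs, Socs3 was at 6939, 7740 and 7176 in WT and at 9660 and 9010 in LC-/- libraries, so both LC-/- libraries were higher, 1.28-fold (log2 change 0.36, SE 0.09). Among all tested genes, 1.08% were separated as lower in KCs and higher in DETCs, and Socs2 was the other family member in that class. This difference between the populations was not tested for Socs2 or Socs3, since the choice of genes had used both changes.

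Socs2 (ENSMUSG00000020027.18, chr10:95385362-95417180, minus strand), known as the inhibitor of growth hormone signalling, had few reads in KCs, from 35 to 87 per library. It was at 66.6, 64.9 and 75.2 normalized counts in WT KCs and at 60.6, 39.7 and 36.8 in LC-/- KCs (log2 change -0.61, SE 0.22). LC-/- replicate 1 lay near the WT values, and the other 2 LC-/- libraries were well below them. In DETCs, Socs2 was at 263, 279 and 264 in WT and at 395 and 341 in LC-/- libraries, 1.37-fold higher (log2 change 0.45, SE 0.12) with no overlap.

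Socs1 (ENSMUSG00000038037.4, chr16:10782240-10785536, minus strand), the inhibitor of Janus kinases best known from interferon and interleukin-4 signalling, was higher without LCs in both populations. It was at 257, 232 and 271 in WT KCs and at 361, 296 and 369 in LC-/- KCs, 1.35-fold higher (log2 change 0.43, SE 0.11). In DETCs it was at 1954, 2197 and 2213 in WT and at 2348 and 2691 in LC-/- libraries, 1.19-fold higher (log2 change 0.25, SE 0.10). This change was 0.15 (SE 0.12) without LC-/- replicate 3, the higher of the 2. Stat3 and Socs1 were the 2 family members higher without overlap in both populations, a class that held 7.80% of all tested genes. Cish (ENSMUSG00000032578.7, chr9:107296026-107302784, plus strand), whose start region is printed above, was at 4319, 4538 and 4282 in WT KCs and at 4077, 4251 and 3994 in LC-/- KCs, with no overlap and a log2 change of -0.09 (SE 0.04). In DETCs, Cish was at 2312, 2726 and 2635 in WT and at 2178 and 2348 in LC-/- libraries, which overlapped (log2 change -0.17, SE 0.10).

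**Figure D2:**
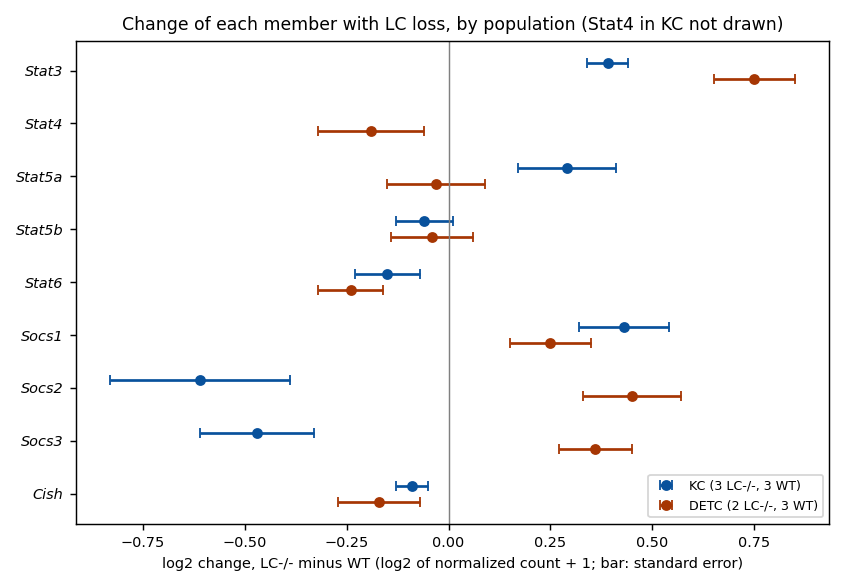
Log2 change of each gene, LC-/- minus WT (horizontal axis), in KCs (blue) and DETCs (brown), with bars for 1 standard error; Stat4 is drawn in DETCs only, because KCs held 1 read of it. Stat3 and Socs1 lie right of 0 in both populations, and Socs2 and Socs3 lie left of 0 in KCs and right of 0 in DETCs.

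The plot of log2 changes sets the 2 populations side by side. Stat3 and Socs3 lay on opposite sides of 0 in KCs and on the same side in DETCs, and their ratio was computed per kilobase of exon, the scale on which levels of different genes are compared here. The Socs3-to-Stat3 ratio was 3.6, 3.93 and 3.31 in WT KCs and 1.84, 2.39 and 1.77 in LC-/- KCs. WT DETCs had ratios of 3.76, 3.97 and 3.32, and the LC-/- DETC libraries 2.76 and 2.84. The ratio was lower without LCs in every library of both populations, with means of 3.61 ± 0.31 and 2 ± 0.339 in KCs (SD, n = 3 each) and 3.69 ± 0.333 (n = 3) and 2.8 ± 0.0581 (n = 2) in DETCs. Since Stat3 is the denominator and its higher level without LCs was part of the choice of genes, the ratio restates that pattern, and in DETCs Socs3 itself was higher. The same holds for the share of Stat3 among the STAT genes. Stat3 made up 65.8% ± 1.29 of the summed level of the 5 STAT genes per length in WT KCs and 72.6% ± 1.44 in LC-/- KCs. In DETCs that share was 40.5% ± 1.41 in WT (n = 3) and 56% ± 2.67 in LC-/- libraries (n = 2).

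The order of levels per kilobase of exon was described in each group. In WT KCs, Socs3 came first with a mean level of 3402 normalized counts per kilobase (SD 213, n = 3), followed by Stat3 with 943, Cish with 682 and Stat6 with 359. Socs1 followed with 87.1 and Stat5b with 76.1, and these neighbours overlapped between libraries. Stat5a at 56.3, Socs2 at 7.23 and Stat4 closed the order. In WT DETCs, Socs3 was again first with 2520 per kilobase (SD 142, n = 3), and Socs1 with 730 and Stat3 with 686 came next and overlapped. Stat6 at 545, Cish at 398, Stat5b at 312, Stat5a at 92, Stat4 at 57.2 and Socs2 at 28.2 followed without overlap between neighbours. In LC-/- KCs the order of the means was the same as in WT KCs, but the neighbours that overlapped were Stat5b at 72.7 and Stat5a at 68.9. In LC-/- DETCs, Stat3 at 1153 per kilobase stood above Socs1 at 866 with no overlap, and the other genes kept their places. Socs3 was at the 98.8 percentile of all tested genes in level per kilobase in WT KCs and at the 98.1 percentile in WT DETCs. Stat3 was at the 95.9 and 92.6 percentile in the same groups, and Socs2 at the 16.8 and 30.9 percentile.

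**Figure D3:**
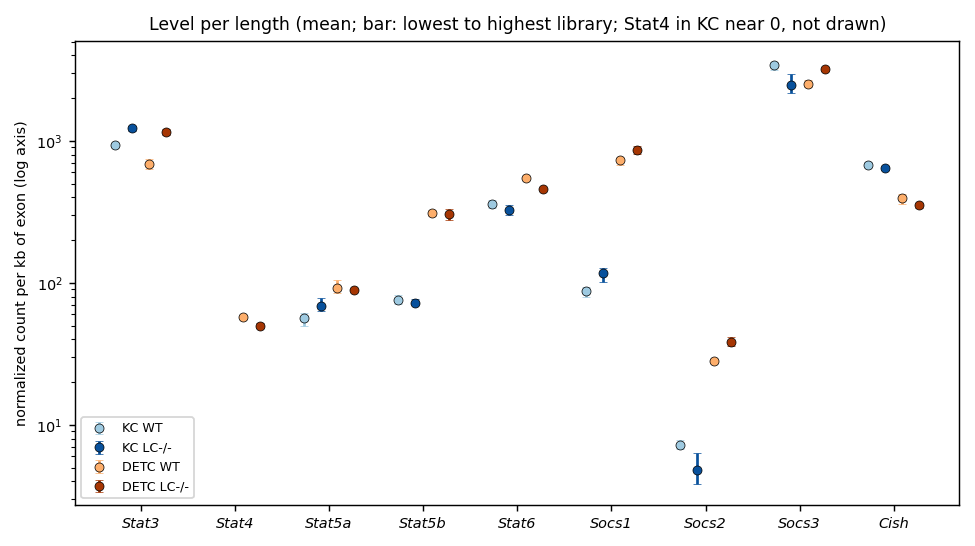
Mean normalized count per kilobase of exon (vertical log axis) of each gene in the 4 groups, with bars from the lowest to the highest library; Stat4 in KCs, near 0, is not drawn. Socs3 is highest in every group, and Stat4, Stat5b, Socs1 and Socs2 are set apart between KCs and DETCs.

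The plot of levels per length also shows how KCs and DETCs differed, a comparison on which the choice of genes did not rest and which was therefore tested. Stat4 was set aside, because it had entered the tested genes through its DETC libraries and had to differ. Between WT DETCs and WT KCs, the other 8 genes passed the limma test at an adjusted p under 0.05, 5 higher in DETCs and 3 higher in KCs. Of all tested genes, 76.0% passed in this contrast, 41.0% as higher and 35.1% as lower in DETCs, so a call here is common. The WT libraries of this comparison are also the controls of the genotype comparisons above.

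Apart from Stat4, Socs1 differed most in fold between the populations, 8.35-fold higher in WT DETCs (log2 difference 3.06, SE 0.09, limma adjusted p = 1.96e-09). Stat5b was 4.09-fold higher in DETCs (log2 difference 2.03, SE 0.08, adjusted p = 1.45e-08) and Socs2 3.86-fold higher (1.95, SE 0.13, adjusted p = 4.43e-07). Stat5a and Stat6 differed less, 1.63-fold (log2 difference 0.71, SE 0.11, adjusted p = 0.000291) and 1.52-fold (0.60, SE 0.07, adjusted p = 3.07e-05). Stat4 was found in all WT DETC libraries, with 702 reads together, and had 1 read in WT KCs, for which no fold and no test are given. The 3 genes lower in DETCs were Cish at 0.583-fold (log2 difference -0.78, SE 0.08, adjusted p = 1.2e-05), Stat3 at 0.726-fold (-0.46, SE 0.08, adjusted p = 0.000656) and Socs3 at 0.741-fold (-0.43, SE 0.08, adjusted p = 0.00112). Stat5b and Stat5a also stood in another proportion per length, with a Stat5b-to-Stat5a ratio of 1.37 ± 0.262 in WT KCs and 3.42 ± 0.409 in WT DETCs (SD, n = 3 each). Cish stood at 5.15 ± 0.143 times the summed level of Stat5a and Stat5b per length in WT KCs and at 0.986 ± 0.0439 times in WT DETCs.

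Among LC-/- libraries, which the WT comparison does not contain, 6 of the 8 genes other than Stat4 passed the limma test between DETCs and KCs, 5 higher in DETCs and 1 lower, where 70.2% of all tested genes passed, 38.1% as higher and 32.1% as lower. Socs1 was 7.36-fold higher in DETCs (log2 difference 2.88, SE 0.13, limma adjusted p = 5.47e-06), Socs2 8.07-fold (3.01, SE 0.25, adjusted p = 7.61e-05) and Stat5b 4.16-fold (2.06, SE 0.11, adjusted p = 1.14e-05). Stat4, with no read in LC-/- KCs, was at least 61.2-fold higher in DETCs when KCs were set to a floor of 3 reads per library, again with no test. Cish was again lower in DETCs, at 0.551-fold (log2 difference -0.86, SE 0.08, limma adjusted p = 0.000126). Stat6 was 1.42-fold higher (log2 difference 0.51, SE 0.09, limma adjusted p = 0.00277). Stat5a was 1.31-fold higher (0.39, SE 0.12, limma adjusted p = 0.0288). This limma call was lost when KC LC-/- replicate 1 (adjusted p = 0.0944) or KC LC-/- replicate 3 (0.0832) was left out. Without DETC LC-/- replicate 2 or 3, which left 1 library in that group, the log2 difference was 0.39 or 0.38.

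The 2 genes that missed the threshold among LC-/- libraries were Stat3 and Socs3. Stat3 was at 0.931-fold in DETCs relative to KCs with overlapping libraries (log2 difference -0.10, SE 0.10, limma adjusted p = 0.371), and between -0.17 and -0.03 with 1 library left out. The known rise of Stat3 rested on these same LC-/- values. Its smaller difference here than in WT libraries therefore restates its larger change in DETCs than in KCs. Socs3 was 1.32-fold higher in DETCs (log2 difference 0.40, SE 0.15, limma adjusted p = 0.0517), with both DETC libraries above all 3 KC libraries. This value lay at the threshold, and with the label number shared by KC and DETC libraries as a block it passed (0.39, limma adjusted p = 0.0469). Leaving out KC LC-/- replicate 2, the library highest in Socs3 among LC-/- KCs, gave a log2 difference of 0.54 and a limma adjusted p of 0.00238. With quantile normalization, the Stat3 difference was -0.48 (limma adjusted p = 0.00274) and the Socs3 difference 0.04 (adjusted p = 0.802), and neither Stat5a at 0.17 (adjusted p = 0.245) nor Stat6 at 0.21 (adjusted p = 0.0989) passed. In WT libraries that normalization moved the median DETC-to-KC log2 difference of all tested genes from 0.073 to -0.247, and the share of calls that were higher in DETCs from 53.9% to 41.3%.

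The identity of the sorted cells was checked against marker genes. All 17 DETC markers were found in each DETC library, with summed normalized counts of 210930 to 244522, against 350 to 673 in KC libraries, where Thy1 gave most of the sum. Gzmb was at 0 in all KC libraries. Within the DETC list, the gamma-delta T cell receptor genes were lower in both LC-/- DETC libraries than in any WT library, with Trdc at 30304 to 39123 in WT and 23250 to 26887 in LC-/- libraries and Trdv4 at 7750 to 11432 and 4115 to 5387. Cd3g, at 26857 to 29141 and 23290 to 25502, and Cd3d, at 4058 to 4171 and 3500 to 3875, were also lower. Klrk1, at 6823 to 7507 and 8241 to 9057, and Cd2, at 4561 to 5165 and 6095 to 6447, were higher. These markers moved with the genotype, as Stat3, Socs2 and Socs3 did in DETCs, and their part in those values was not tested. All 20 keratinocyte markers, with Krt5 the most abundant in KCs, were found in every library, with sums of 742806 to 791541 in KCs and 123668 to 204315 in DETCs. Set against the KC mean of the same genotype, the median keratinocyte marker stood at 15.3%, 15.2% and 18.5% in WT DETC libraries and at 23.5% and 16.4% in LC-/- DETC libraries 2 and 3. That share of the KC mean would amount to 18.5% to 24% of the Stat3 value of a DETC library, 13% to 25.4% of the Socs3 value and 24.4% to 44.3% of the Cish value. For Socs1 it would be 1.75% to 3.42% and for Socs2 2.2% to 4.84%.

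**Figure D4:**
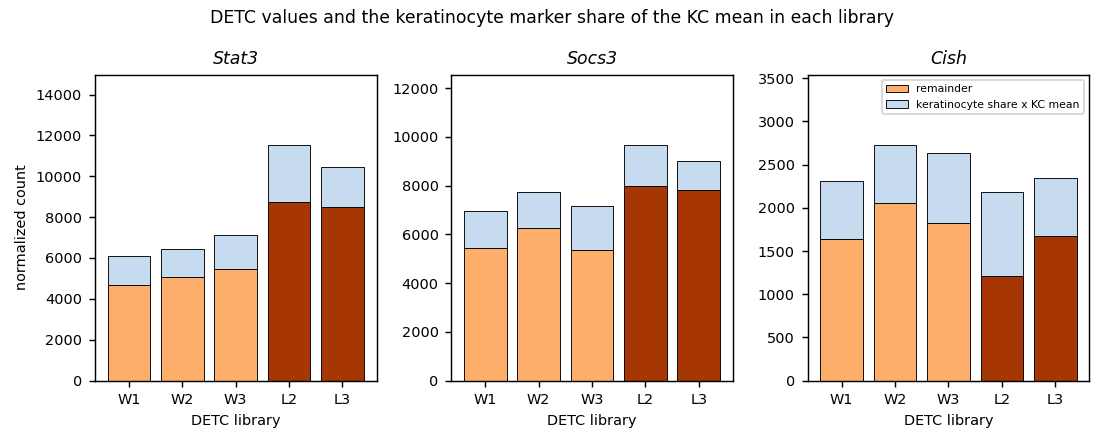
Normalized count (vertical axis, from 0) of Stat3, Socs3 and Cish in the 5 DETC libraries (W1 to W3, WT; L2 and L3, LC-/-), split into the library's keratinocyte marker share of the KC mean (pale blue, top) and the remainder. The remainder of Stat3 and Socs3 is higher in L2 and L3 than in W1 to W3, and Cish has the largest pale part, 44.3% in L2.

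After that share was subtracted, as the split bars of the DETC libraries show, the log2 change between DETC genotypes was 0.77 for Stat3, 0.48 for Socs3, 0.48 for Socs2, 0.24 for Socs1, -0.30 for Stat6 and -0.36 for Cish. The size for Stat3 was close to the value without subtraction, and the change of Cish moved from -0.17. In WT libraries, subtraction moved the DETC-to-KC log2 difference of Stat3 from -0.46 to -0.83, of Socs3 from -0.43 to -0.79 and of Cish from -0.78 to -1.26. The LC-/- comparison of populations was not fitted after subtraction, and the remainders are given as values. The remainder of Stat3 was 8756 and 8509 in LC-/- DETC libraries 2 and 3, below the LC-/- KC libraries at 11278, 11901 and 12176, so these groups no longer overlapped. That of Socs3 was 7982 and 7840, between the LC-/- KC values of 6296, 8614 and 6522, so the separation seen without subtraction was lost. That of Stat5a was 521 and 563, which overlapped LC-/- KCs at 458, 563 and 454.

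Markers of other cells were listed in the same way. Of the 11 LC markers, Cd207, which encodes langerin, was at 6.15, 26.9 and 15.6 in WT KCs and at 0 in all LC-/- KC libraries, and at 21.8, 16.5 and 46.7 in WT DETCs and 0 and 4.42 in LC-/- DETCs. The summed LC list was 6298 to 6893 in WT KCs and 9657 to 10233 in LC-/- KCs, and most of it was Epcam, an adhesion gene that other epithelial cells also express, at 5799 to 6564 and 9484 to 9970. In DETCs the sum was 3224 to 3861 in WT and 3900 to 4329 in LC-/- libraries, of which Epcam made up 1173 to 1451 and 1814 to 2500 and Ccr7 332 to 476 and 683 to 838. The MHC-II pathway genes Cd74 and H2-Aa stood the other way in both populations. In KCs, Cd74 was at 79.9 to 112 in WT and 17.3 to 42 in LC-/- libraries and H2-Aa at 33.7 to 54.7 and 6.61 to 14.7. The DETC libraries had Cd74 at 336 to 448 in WT and 111 to 190 in LC-/- libraries and H2-Aa at 51.3 to 81.7 and 4.85 to 9.95. The 6 markers of alpha-beta T cells summed to 9609, 11627 and 10434 in WT DETCs and to 7415 and 13672 in LC-/- DETCs, with Trbc1 or Trac the most abundant, and all 6 were found in each DETC library. In KCs their sums were 89.3 to 166, with Cd4 and Cd8b1 at 0. The LC-/- DETC libraries 2 and 3 stood far apart in Cd8a, at 378 and 2825, and in Cd8b1, at 98.1 and 943, but not in Trbc1, at 3215 and 3079. WT DETCs had Cd8a at 786, 2092 and 1716 and Cd8b1 at 232, 695 and 601. Fibroblast markers summed to 18.4 to 158 over the 11 libraries, with Col1a2 or Col1a1 the most abundant. Of the 6 mast cell markers, Cpa3, Tpsb2, Mcpt4 and Fcer1a were at 0 in all 11 libraries, and Kit was the most abundant, at 294 to 573 in DETCs. Melanocyte markers summed to 283 to 461 in KCs and 121 to 193 in DETCs, most of it Mitf. The melanocyte marker Dct was at 42, 26 and 57.1 in WT KCs and at 7.71, 18.3 and 17.9 in LC-/- KCs. The fibroblast marker Dcn was at 7.17, 22.3 and 27.7 in WT KCs and at 6.61, 6.11 and 5.25 in LC-/- KCs. Col3a1 was also lower in each LC-/- KC library, and the other markers of these lists overlapped in KCs. Their part in the values of the 9 genes was not tested.

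Genes of the immediate early response, which skin digestion and sorting are known to induce, were abundant in all libraries. Their 11 genes summed to 355466, 370136 and 370063 in WT KCs and to 326391, 368453 and 393386 in LC-/- KCs. In DETCs they summed to 245544, 267495 and 297537 in WT and to 298120 and 346347 in LC-/- libraries, with Fos or Fosb the most abundant. The LC-/- DETC libraries, in which Stat3 and Socs3 were higher, also held the highest immediate early sums among DETCs. Fosb, Jun, Egr1, Egr2, Ier2, Atf3, Dusp1, Hspa1a and Hspa1b were each higher in both LC-/- DETC libraries than in any WT DETC library. Fosb was at 70250, 71733 and 80782 in WT and at 98255 and 114439 in LC-/- DETCs. Hspa1b was at 5550, 4979 and 8488 in WT and at 10197 and 9962 in LC-/- DETCs. Fos and Nr4a1 overlapped between DETC genotypes. In KCs the genotypes overlapped in this sum, and LC-/- replicate 1, the library lowest in Socs3, was also the lowest in it, while LC-/- replicate 3, with the highest sum, had the next lowest Socs3 value. Of the 11 genes, 3 were separated between KC genotypes. Fos was at 49177, 51537 and 48846 in WT and 34657, 35715 and 41374 in LC-/- libraries, lower in each LC-/- library as Socs3 was, and Ier2, at 8822 to 9154 and 8384 to 8744, was also lower. Egr2 was higher in each LC-/- KC library, at 3925, 4241 and 4400 in WT and 4622, 4952 and 4854 in LC-/-. The part of these markers in the values of the 9 genes was not tested.

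The rest of the pathway was described by 13 lists of 107 genes, of which 90 were tested. In KCs, 7 of the 90 rose and 5 fell without LCs by the limma test, beside 5.37% and 1.85% of all tested genes, and their median log2 change was 0.00. In DETCs, 5 rose and 3 fell, beside 3.13% and 0.430%, with a median of 0.11. With 1 KC library left out at a time, between 0 and 10 of the genes passed in KCs. With 1 WT DETC library left out, between 0 and 7 passed in DETCs. In KCs the number was 1 without WT replicate 1, 0 without WT replicate 2, 3 without WT replicate 3, 0 without LC-/- replicate 1, 10 without LC-/- replicate 2 and 0 without LC-/- replicate 3. In DETCs it was 7 without WT replicate 1, 2 without WT replicate 2 and 0 without WT replicate 3. Leaving out an LC-/- DETC library left 1 library in that group, so no count is given for those fits. None of the 12 KC calls passed in more than 2 of the 6 KC fits, and none of the 8 DETC calls passed without WT replicate 3.

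**Figure D5:**
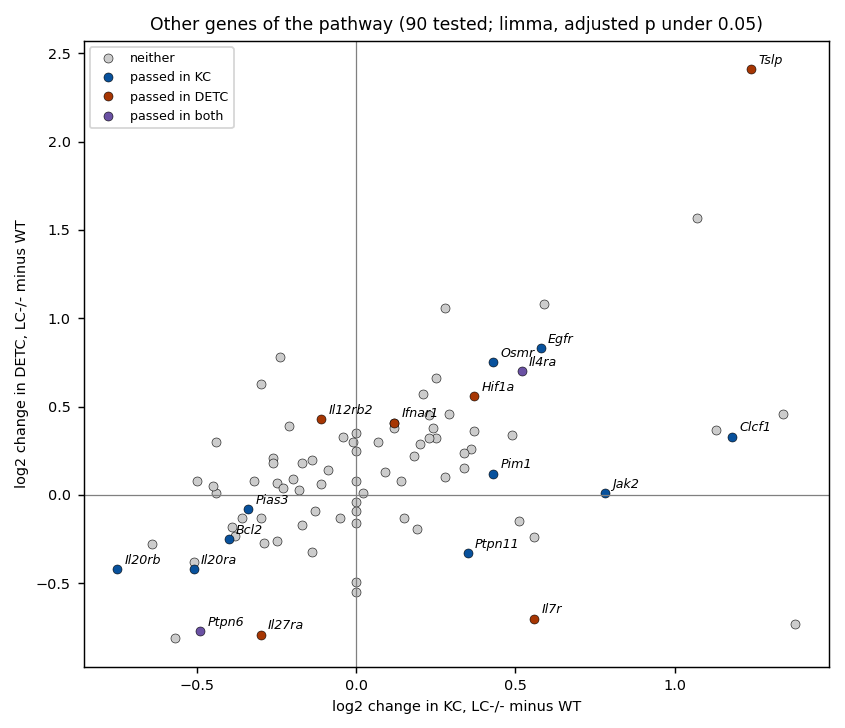
Log2 change, LC-/- minus WT, of the 90 tested pathway genes in KCs (horizontal axis) and DETCs (vertical axis), coloured by whether limma gave an adjusted p under 0.05 in KCs, DETCs, both or neither. Il4ra rose and Ptpn6 fell in both populations; Tslp, at the top, passed in DETCs.

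Receptors of the interleukin-4 and gp130 type are drawn among the coloured points of the pathway plot. Il4ra, the interleukin-4 receptor chain that recruits STAT6, rose in KCs from 1709, 1623 and 1850 to 2415, 2587 and 2444 (log2 change 0.52, SE 0.06, limma adjusted p = 0.0198). In DETCs, Il4ra rose from 5921, 6619 and 7160 to 11364 and 9991 (log2 change 0.70, SE 0.11, limma adjusted p = 0.0235). Both changes left no overlap between genotypes. Il4ra was 1 of 2 genes of the 8 receptors that share or pair with the common gamma chain to pass in DETCs. The other gene was Il7r, the interleukin-7 receptor chain, which fell from 1654, 1671 and 1866 to 1176 and 965 (log2 change -0.70, SE 0.11, limma adjusted p = 0.023). Of all tested genes, 3.13% were called higher and 0.430% lower in DETCs.

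Osmr, the oncostatin M receptor chain that signals through STAT3, rose in KCs from 2026, 1994 and 2036 to 2756, 2653 and 2758 (log2 change 0.43, SE 0.03, limma adjusted p = 0.0159). It was the 1 gene of 7 tested gp130 family receptors to pass in KCs, where 5.37% of all tested genes were called higher. Il27ra, the interleukin-27 receptor chain of the same family, fell in DETCs from 835, 791 and 852 to 399 and 572 (log2 change -0.79, SE 0.15, limma adjusted p = 0.0343). Il20ra and Il20rb, which form receptors for interleukin-20 and its relatives, fell in KCs by 0.51 and 0.75 on the log2 scale (SE 0.08 and 0.09, limma adjusted p = 0.0302 and 0.0228). They were 2 of the 6 interleukin-10 family receptors, where 1.85% of all tested genes were called lower in KCs. In DETCs, Il12rb2, the interleukin-12 receptor chain that recruits STAT4, rose by a log2 change of 0.43 (SE 0.09, limma adjusted p = 0.0398), and Ifnar1, a chain of the type I interferon receptor, by 0.41 (SE 0.08, adjusted p = 0.034). Egfr, the epidermal growth factor receptor, rose in KCs from 3410, 3473 and 4192 to 5849, 4944 and 5795 (log2 change 0.58, SE 0.11, limma adjusted p = 0.0446), a call lost in all 6 limma fits that left out 1 KC library.

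Among the kinases and inhibitors next to the SOCS genes, Jak2, the Janus kinase of many cytokine and growth hormone receptors, rose in KCs from 2257, 2360 and 2866 to 4409, 3634 and 4859 (log2 change 0.78, SE 0.14, limma adjusted p = 0.0428), and none of the other 3 Janus kinases passed in either population. Ptpn6, the phosphatase SHP-1 that dampens receptor and kinase signalling, fell in DETCs from 5477, 4710 and 4845 to 2995 and 2855 (log2 change -0.77, SE 0.10, limma adjusted p = 0.0136). In KCs, Ptpn6 fell from 291, 290 and 270 to 189, 225 and 191 (log2 change -0.49, SE 0.09, limma adjusted p = 0.042). Pias3, an inhibitor that binds STAT3, fell in KCs by 0.34 on the log2 scale (SE 0.07, limma adjusted p = 0.0496). It passed in 0 of the 6 limma fits with 1 KC library left out, and its adjusted p reached 0.145 over the alternatives. Ptpn11, the phosphatase SHP-2, rose in KCs from 2241, 2193 and 2298 to 2954, 2788 and 2851 (log2 change 0.35, SE 0.04, limma adjusted p = 0.0193). In DETCs, Ptpn11 was at 5652, 4984 and 5836 in WT and at 4446 and 4278 in LC-/- libraries (log2 change -0.33, SE 0.10, limma adjusted p = 0.115). Ptpn11 was the 1 gene of the 90 whose change differed between the populations in the interaction test (difference of log2 changes -0.68, SE 0.11, limma adjusted p = 0.0146), which 0.798% of all tested genes passed. That limma call was lost without KC WT replicate 2 (adjusted p = 0.0563) or KC LC-/- replicate 1 (0.0508), and with untrended variance (0.0773). Without DETC LC-/- replicate 2, which left 1 library in that group, the difference was -0.71. Stat2, which carries interferon signals, did not pass, with a log2 change of 0.20 in KCs and 0.29 in DETCs. No gene passed among the other SOCS genes, of which Socs7 and Socs4, the most abundant per length, had log2 changes of 0.18 and 0.37 in KCs and 0.22 and 0.36 in DETCs.

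Of the ligands, Clcf1, a cytokine of the interleukin-6 family, rose in KCs from 507, 739 and 771 to 1509, 1449 and 1557 (log2 change 1.18, SE 0.17, limma adjusted p = 0.0273). Tslp, an epithelial cytokine whose receptor activates STAT5, was at 13.1, 16.5 and 9.72 in WT DETCs and at 81.6 and 64.1 in LC-/- DETCs, where it rose (log2 change 2.41, SE 0.34, limma adjusted p = 0.0168). Tslp was at 172, 281 and 284 in WT KCs and at 739, 370 and 662 in LC-/- KCs. The keratinocyte share of the KC mean exceeded the Tslp value of every DETC library. Subtraction therefore left no Tslp value to compare between DETC genotypes, and no change after it can be given.

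Of 17 genes listed as STAT3 targets, 3 rose in KCs (Osmr, Il4ra and Pim1) and 2 in DETCs (Il4ra and Hif1a), beside 5.37% and 3.13% of all tested genes called higher. None was called lower, where 1.85% and 0.430% of all tested genes were. Their median log2 change was 0.12 in KCs and 0.35 in DETCs, where that of all tested genes was -0.01 and 0.02. The list was written with earlier results of these data known. The part of the immediate early response in these medians was not tested, and they are no measurement of STAT3 activity. Pim1, a survival kinase, rose in KCs from 6992, 8105 and 8177 to 10604, 10157 and 10522 (log2 change 0.43, SE 0.07, limma adjusted p = 0.0381), but passed in 0 of the 6 limma fits with 1 KC library left out. Hif1a, the oxygen-regulated transcription factor, rose in DETCs from 3428, 3827 and 4228 to 6033 and 5217 (log2 change 0.56, SE 0.12, limma adjusted p = 0.0446). Of 7 listed STAT5 targets, Bcl2, which protects cells from death, fell in KCs by 0.40 on the log2 scale (SE 0.08, limma adjusted p = 0.0499) and none passed in DETCs. Like Pim1, Bcl2 kept its KC call in 0 of those 6 fits, with an adjusted p of up to 0.157 over the alternatives. After subtraction of the keratinocyte share, none of the 8 pathway genes called in DETCs had an adjusted p under 0.05, and neither did any other gene by limma, although without adjustment a p under 0.05 was reached by 1224 genes as higher and 1169 as lower. The log2 changes of the pathway genes other than Tslp were close to those without subtraction, at 0.70 for Il4ra, -0.70 for Il7r, -0.78 for Ptpn6, -0.79 for Il27ra, 0.44 for Il12rb2, 0.41 for Ifnar1 and 0.49 for Hif1a.

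Between WT populations, 50 of the 90 genes were higher in DETCs and 35 higher in KCs, where 41.0% and 35.1% of all tested genes were. Genes that had passed the filter on low values through 1 population alone are part of these counts, which are therefore a description. Jak3, the kinase of the common gamma chain, was at 1571 ± 132 in WT DETCs and at 68.1 ± 7.91 in WT KCs (SD, n = 3 each), and Il2rg, the common gamma chain itself, at 7273 ± 221 and 180 ± 42.4. Osmr stood the other way, at 291 ± 14.3 in WT DETCs and 2019 ± 21.7 in WT KCs, as did Il20ra at 138 ± 23.8 and 1099 ± 87.9. All 4 Janus kinases and all 4 interferon receptor chains were higher in DETCs.

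The genes whose pattern lay closest to that of Stat3 were sought over all 11 libraries, as the smallest root-mean-square difference in log2 values after each gene's WT mean in a population was subtracted. Among 12321 genes compared, Ago2, an Argonaute protein of RNA silencing, was nearest with 0.0639, followed by Vps37b with 0.0658, Usp37 with 0.0738, Aff1 with 0.0784 and Rab3gap2 with 0.0796, where the median gene stood at 0.433. The difference between mean log2 values of the genotypes was 0.34 in KCs and 0.65 in DETCs for Ago2, and 0.37 and 0.83 for Aff1. Likeness in this measure leaves out the level in each population. Ago2 had mean counts of 4410 in WT KCs and 10068 in WT DETCs, and Aff1 had 7628 ± 268 and 6896 ± 1069 (SD, n = 3 each).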

How the data were processed

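Poly-A RNA-seq libraries (75-base paired-end reads) had been aligned by the authors to GRCm38 with hisat2 and counted per gene with featureCounts. The deposited table holds normalized counts, a signal in which the authors divided the count of each gene by 1 factor per library (the submitters' processing notes name DESeq2); tool versions were not given in the sources used here. The whole reads behind the values were recovered from each library's smallest step, and all values came out within 0.00118 of a whole number. Genes with a CPM above 1 in at least 2 of the 11 libraries (14419) were tested with limma 3.58.1 (R 4.3.3) on normalized counts after adding 1 and taking log2, with trended variance and Benjamini-Hochberg adjustment over all genes, and a gene was called at an adjusted p under 0.05. On the recovered reads, edgeR 4.0.16 called 1783 genes between KC genotypes and 483 between DETC genotypes, where limma called 1042 and 514.

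The 9 genes and all lists were chosen with earlier results of these data known. Named were the 9 genes, the called genes of each pathway list (at most 5 a population, or the 2 most abundant per length where none was called), the 5 genes nearest to Stat3 and the marker genes. 1 gene of the pathway lists is not reported here. Levels per kilobase used merged exons of GENCODE mouse release 21. The keratinocyte share of a DETC library is the median, over 20 markers, of its value relative to the KC mean of the same genotype. Within a population each library came from a separate animal, according to the study. The 11 libraries held 13491075 to 19750440 reads, so 3 reads were at most 2.22e-05% of a library. Replicates of a group differed by more than counting error (chi-square per degree of freedom 8.41 to 25.2). Alternatives were other pseudocounts and filters, edgeR, DESeq2 1.42.0, quantile normalization, untrended variance, 1 fit over all libraries, subtraction of the keratinocyte share, the label number as a block, and each library left out. Without 1 of the 2 LC-/- DETC libraries, that group held 1 library and the other groups alone gave the spread.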

Additional observations from a re-analysis of the deposited data

Results flagged for a closer look

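Socs2 had a log2 change of -0.61 between KC genotypes and of 0.45 between DETC genotypes. Every LC-/- KC library lay below every WT KC library, and both LC-/- DETC libraries lay above every WT DETC library, so the populations stood in opposite directions. Socs3 did the same, with -0.47 in KCs and 0.36 in DETCs. These differences between populations were not tested. Of all tested genes, 1.08% showed this pattern of separation. Ptpn11, which encodes the phosphatase SHP-2, differed in its change between the populations by -0.68 on the log2 scale (DETC minus KC), by the limma interaction test over all 11 libraries (adjusted p = 0.0146). This limma call was lost with untrended variance (adjusted p = 0.0773) and without KC WT replicate 2 (0.0563) or KC LC-/- replicate 1 (0.0508). Ptpn11 was higher in 3 of 3 LC-/- KC libraries than in any WT KC library and lower in 2 of 2 LC-/- DETC libraries than in any WT DETC library.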

How the results depend on the processing

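Between KC genotypes, limma called 1042 genes, and 340 without the filter on low values, 1783 with edgeR and 1752 with DESeq2 on recovered reads, and 5 to 721 with 1 library left out. Between DETC genotypes, limma called 514, and 185 without the filter, 1079 with DESeq2, 148 after quantile normalization, 959 in 1 fit over all libraries and 35 to 590 with 1 library left out. With untrended variance or with the keratinocyte share subtracted it called 0 (1554 higher and 853 lower, or 1224 and 1169, at an unadjusted p under 0.05). The interaction called 115 genes, and 312 with DESeq2, 22 with untrended variance and 32 to 138 with 1 library left out. Of the pathway genes, 12 passed in KCs, and 3 without the filter, 22 with edgeR, 23 with DESeq2 and 0 to 10 with 1 library left out. In DETCs 8 passed, and 1 without the filter, 18 with DESeq2, 4 after quantile normalization, 0 with untrended variance, 0 after subtraction and 0 to 7 with 1 WT library left out. Quantile normalization lowered the share of calls that were higher from 74.4% to 63.1% in KCs and from 87.9% to 72.3% in DETCs. The cause was not tested.

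For the 9 genes, 246 of 270 genotype values moved by less than the spread of the WT libraries. Leaving out DETC LC-/- replicate 2, the library with the highest keratinocyte share, gave Stat5b a log2 change of 0.09. Of 288 values between populations, 8 lost the call and 6 gained it, in Stat3, Stat5a, Stat6 and Socs3 among LC-/- libraries. Stat5a lost it without the filter (limma adjusted p = 0.0831) and with untrended variance (0.0577), and Socs3 gained it with a pseudocount of 8 (0.0435), with DESeq2 (0.0379) and in 1 fit over all libraries (0.0128). Same-numbered KC and DETC libraries deviated together with correlations of -0.0605 to 0.155 across 14102 genes, and 4 of 5 DETC libraries correlated best with the KC library of their own number. The number may mark the mouse, which no source used here states, and not every same-numbered pair correlated, so the block is given as an alternative. With the label number as a replicate block, limma called 11036 genes between WT populations (10965 without it), 10292 between LC-/- populations (10126) and 132 in the interaction (115), and Socs3 among LC-/- libraries gained a call (log2 difference 0.39, adjusted p = 0.0469). Depth was least for Stat4 (0 or 1 read) and Socs2 (35 to 87 reads) in KC libraries.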
